A study of Mus musculus with 20 samples.

Results

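The alpha-defensins, other secreted products of Paneth cells, and the genes Habp2 and Nupr1 were examined in 20 mouse intestinal RNA-seq libraries. The set comprised 33 of the 24795 rows of the deposited table: the 27 rows whose identifier starts with Defa followed by a digit or a hyphen, and AY761184, Lyz1, Ang4, Itln1, Habp2 and Nupr1. Of these, 29 reached at least 1 RPKM (reads per kilobase of transcript, scaled to the library's mapped reads) in at least 6 libraries and entered the tests. The rule uses names, not values.

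The libraries form 3 groups: 6 from Apc Min mice treated with DM-aKG, 7 from Apc Min mice with a control treatment, and 7 from WT mice without treatment. The Min allele of Apc encodes a truncated protein that no longer limits beta-catenin, and its carriers form many intestinal adenomas. The name DM-aKG stands for dimethyl alpha-ketoglutarate, an ester through which this TCA cycle metabolite enters cells. Sample titles name tissue, whereas the other fields name intestinal organoids, in vitro culture and, for all 20 libraries including WT, a low-glutamine medium. The sources used here do not give dose, duration, age, sex, strain or which libraries share an animal, so p-values measure only the spread between these libraries, which may be technical. Read depth, estimated from the step between low values, was 21.2 to 29.3 M reads per library.

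Paneth cells sit at the base of small intestinal crypts beside the stem cells and secrete granules of antimicrobial proteins. Mouse alpha-defensins, also called cryptdins, are made as precursors that the metalloprotease Mmp7 cleaves, and they disrupt bacterial membranes. Differentiation of Paneth cells depends on Wnt signalling through beta-catenin and TCF factors and on Sox9, which ties these genes to the pathway that Apc restrains. Bulk RNA cannot tell fewer Paneth cells apart from less granule RNA per cell.

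Markers of intestinal region were uneven within groups. Lct, the lactase of proximal enterocytes, had 194.6 RPKM in DM-aKG replicate 6, against at most 1.85 RPKM in DM-aKG replicates 1 to 5. Its highest value in control libraries was 3.17 RPKM, and in WT libraries it was 0.149 and 0.171 RPKM in replicates 2 and 4 and 32.6 to 229.2 RPKM in the other 5. The ileal bile acid transporter Slc10a2 had 22.6 RPKM in DM-aKG replicate 6, against 121.3 to 191.3 RPKM in DM-aKG replicates 1 to 5. In WT replicate 1 it had 16.4 RPKM, the lowest of the WT libraries, which reached 326.8 RPKM. Another ileal gene, Fabp6, did not set DM-aKG replicate 6 apart: it had 2984 RPKM there, within the 931.2 to 6010 RPKM of DM-aKG replicates 1 to 5, but 158.2 RPKM in WT replicate 1, against 2838 to 9728 RPKM in WT replicates 2 to 7. Non-epithelial transcripts were measured in every library: the summed RPKM of 7 smooth muscle genes was 728.6 to 1343 in DM-aKG, 333.5 to 1192 in control and 848.8 to 1480 in WT libraries, with none of the 7 at 0 throughout a group. As with the defensins, all 7 were called higher with DM-aKG over control, 6 of them with quantile normalization, and 7 lower in control Apc Min than in WT libraries (limma). Enterocyte genes summed to 11870 to 19880 RPKM in DM-aKG, 5560 to 17090 RPKM in control and 8297 to 23900 RPKM in WT libraries. The part of intestinal region and of cell mixture in the results below was not tested. Replicates 1 to 4 and 5 to 7 are given apart throughout, because earlier results of these data had shown a division of the libraries along these numbers; the labels do not name it a batch.

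The Defa rows with a GENCODE position lie on mouse chromosome 8, within chr8:21025545-21735471 of mm10, except the pseudogene rows Defa-ps12 (chr8:19210462-19212767) and Defa-ps13 (chr8:19300677-19304794). Some are near-identical copies and others are more distant. Over 253 pairs of 23 coding sequences, AY761184 among them, identity ran from 63.0% to full identity with a median of 83.2%. Identical coding sequences were found for Defa20 and Defa32, for Defa3 and Defa17, for Defa2 and Defa33, for Defa23 and Defa31, and for Defa36 and Defa37. No stretch of 50 bases of Defa2, Defa20, Defa31, Defa32, Defa33 or Defa37 was unique to that gene's transcripts, against 71.9% of such stretches for Defa24. Reads of these genes can therefore be divided between rows by the counting, and the rows are also treated as a sum. The coding sequences shown here are those of Defa24, the row with the highest mean over the 20 libraries, of a close copy, of a distant copy and of the cryptdin-related gene AY761184, all spliced from GENCODE M21 on mm10. They are written 5′ to 3′ on the gene's strand, and capitals mark bases that differ from Defa24 or have no counterpart in it in a global alignment.
Defa24 (chr8:21734494-21735471, + strand, 279 bases): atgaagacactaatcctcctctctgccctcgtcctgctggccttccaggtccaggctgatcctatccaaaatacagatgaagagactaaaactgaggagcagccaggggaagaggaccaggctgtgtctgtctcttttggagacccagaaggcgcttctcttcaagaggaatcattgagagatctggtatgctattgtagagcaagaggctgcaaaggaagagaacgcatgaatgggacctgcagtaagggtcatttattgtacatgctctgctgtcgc
Defa23 (chr8:21055047-21056016, + strand, 279 bases, 12 of them capitals; identical to Defa31): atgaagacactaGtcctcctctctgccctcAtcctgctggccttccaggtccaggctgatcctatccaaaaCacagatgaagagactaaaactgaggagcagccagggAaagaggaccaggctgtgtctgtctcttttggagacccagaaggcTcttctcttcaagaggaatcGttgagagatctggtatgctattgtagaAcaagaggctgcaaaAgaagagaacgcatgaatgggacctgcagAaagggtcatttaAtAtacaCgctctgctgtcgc
Defa5 (chr8:21297439-21298375, + strand, 279 bases, 44 of them capitals): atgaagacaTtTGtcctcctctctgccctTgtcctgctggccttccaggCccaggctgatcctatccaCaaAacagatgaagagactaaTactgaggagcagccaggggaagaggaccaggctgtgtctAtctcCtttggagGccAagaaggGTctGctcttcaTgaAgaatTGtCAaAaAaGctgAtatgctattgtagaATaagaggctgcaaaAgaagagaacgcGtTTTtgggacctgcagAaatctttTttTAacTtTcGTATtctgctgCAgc
AY761184 (chr8:21702519-21703645, - strand, bases 1 to 300 of 348): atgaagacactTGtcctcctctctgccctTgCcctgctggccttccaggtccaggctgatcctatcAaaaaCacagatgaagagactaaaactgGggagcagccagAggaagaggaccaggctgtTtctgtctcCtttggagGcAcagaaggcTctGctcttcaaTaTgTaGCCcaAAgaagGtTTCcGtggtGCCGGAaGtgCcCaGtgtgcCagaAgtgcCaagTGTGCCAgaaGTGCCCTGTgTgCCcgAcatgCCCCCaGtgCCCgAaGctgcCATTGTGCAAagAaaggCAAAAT
Defa23 departs from Defa24 at scattered bases. In AY761184, 12 of the first 150 bases are capitals, against 76 of bases 151 to 300. Among the other members, Lyz1, the Paneth-type lysozyme, lies at chr10:117287797-117292868, Ang4, a microbicidal ribonuclease, at chr14:51763878-51773590 and Itln1, a lectin that binds microbial sugars, at chr1:171518122-171535294. Habp2, a serine protease, lies at chr19:56287137-56320822 and Nupr1, a stress-induced chromatin protein, at chr7:126623249-126630861.

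RefSeq (GRCm38.p6) gave the 300 bases around the start site for 17 members, 12 of them Defa rows. The TCF/LEF core CTTTGA, searched on both strands with TCAAAG, was present in 12 of these 12 promoters and in 16.2% of 27025 promoters of the same length. The TATA box core TATAAA, or TTTATA, was present in 11 of the 12 and in 14.2% of all promoters. Among the 17 member promoters, none outside the Defa rows held either core. The 12 promoters belong to related copies and are not independent, and a match does not show binding. The promoter of Defa20 holds 2 TCF/LEF cores and 1 TATA core, which are in capitals. That of Lyz1, which varied with the defensins in these libraries, holds neither string.
Defa20 promoter (chr8:21509008-21509307, + strand): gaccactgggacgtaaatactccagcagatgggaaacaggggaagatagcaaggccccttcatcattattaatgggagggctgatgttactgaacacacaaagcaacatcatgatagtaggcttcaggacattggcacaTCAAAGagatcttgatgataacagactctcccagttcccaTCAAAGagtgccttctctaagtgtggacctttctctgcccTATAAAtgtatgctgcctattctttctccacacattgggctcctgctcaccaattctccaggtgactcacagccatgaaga
Lyz1 promoter (chr10:117292819-117293118, - strand): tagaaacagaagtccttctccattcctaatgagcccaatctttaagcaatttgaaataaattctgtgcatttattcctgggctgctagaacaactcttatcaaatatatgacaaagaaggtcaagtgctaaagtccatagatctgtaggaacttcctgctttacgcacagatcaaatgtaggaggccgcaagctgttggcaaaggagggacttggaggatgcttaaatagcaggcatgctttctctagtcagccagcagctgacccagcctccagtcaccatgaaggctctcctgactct

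Summed over the 27 Defa rows, the alpha-defensins differed widely between libraries. The sum was 30500, 21120, 46830 and 34080 RPKM in DM-aKG replicates 1 to 4, against 1001, 1118, 887.6 and 954.8 RPKM in control replicates 1 to 4. In WT replicates 1 to 4 it was 3948, 11690, 12950 and 14110 RPKM. Within these replicates the 3 groups did not overlap: DM-aKG libraries were highest, WT libraries intermediate and control libraries lowest, with the 4 control values within a narrow band. In the later replicates the sum was 23070 and 10800 RPKM in DM-aKG replicates 5 and 6, against 4850, 23480 and 12530 RPKM in control replicates 5, 6 and 7. In WT replicates 5, 6 and 7 it was 39530, 14260 and 28670 RPKM. There the DM-aKG values lay inside the control range, and every control value in replicates 5 to 7 was above every control value in replicates 1 to 4. The sum made up 3.54 to 12.8% of all RPKM in DM-aKG libraries, against 0.271 to 7.14% in control and 1.13 to 11.6% in WT libraries. As a share of reads it was estimated at 0.0367 to 1.95% over the 20 libraries.

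**Figure D1:**
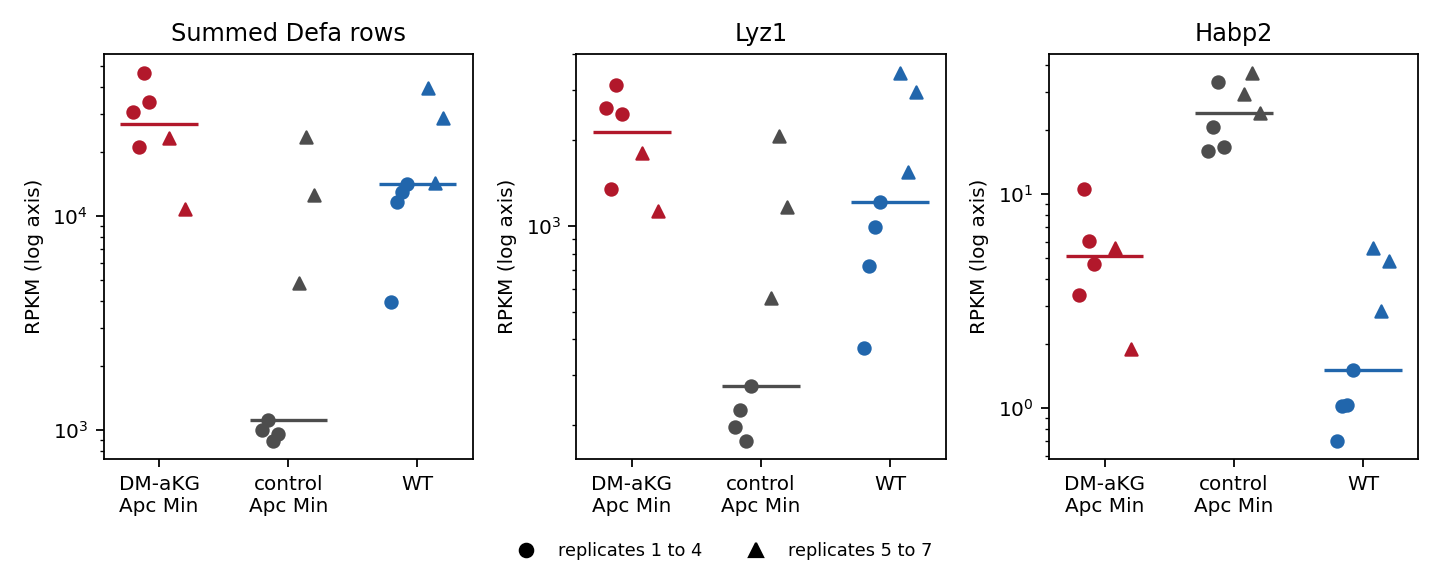
RPKM on log axes for the 27 summed Defa rows, Lyz1 and Habp2 in every library of the DM-aKG, control and WT groups; circles are replicates 1 to 4, triangles replicates 5 to 7 and lines the group medians. In replicates 1 to 4 the summed Defa rows lie between 21120 and 46830 RPKM in DM-aKG and between 887.6 and 1118 RPKM in control libraries, while Habp2 lies the other way, at 3.36 to 10.6 RPKM in DM-aKG and 15.9 to 33.5 RPKM in control libraries.

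DM-aKG over control, both in Apc Min, addresses the effect of treatment, and alpha-defensin RNA was higher with DM-aKG. The summed Defa rows averaged 27730 ± 12370 RPKM with DM-aKG (SD, n = 6) and 6404 ± 8651 RPKM in control libraries (SD, n = 7), a log2 ratio of means of 2.11 (exact permutation test, 2-sided, p = 0.00583, adjusted over 3 comparisons 0.0175). In replicates 1 to 4 the means were 33130 ± 10640 and 990.6 ± 97.2 RPKM (SD, n = 4 each, exact p = 0.0286, the smallest that 4 against 4 allow), a log2 ratio of 5.06. In replicates 5 to 7 they were 16930 RPKM with DM-aKG (n = 2) and 13620 RPKM in control libraries (n = 3), which did not pass (exact p = 0.8, where the smallest possible is 0.1). With labels permuted only within the replicate sets, the pooled difference had an exact p of 0.0114.

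Gene by gene, 26 of the 29 tested members rose with DM-aKG and 1 fell (limma on log2(RPKM + 1), Benjamini-Hochberg adjusted p under 0.05 over 12431 genes). Over all genes tested, 5.91% rose and 27.6% fell. The 26 were 22 of the 23 tested Defa rows with AY761184, Lyz1, Ang4 and Itln1, and the one that fell was Habp2. The log2 changes of the 23 Defa rows ran from 0.52 to 5.27 with a median of 2.9, beside a median of -0.142 over all genes. Because these rows share reads, their number is not a number of independent observations. Across all 6 DM-aKG and all 7 control libraries the ranges of every member that rose overlapped, so that 0 of 29 members lay wholly higher, where 0.732% of all genes did. In replicates 1 to 4, 27 of the 29 lay wholly higher with DM-aKG and 1 wholly lower, where 3.47 and 15.9% of all genes did. In replicates 5 to 7, 0 lay wholly higher and 2, Habp2 and Nupr1, wholly lower, where 8.64 and 39.2% of all genes did. Scaling bears on the background: the median over all genes was 0.022 with quantile normalization and 0.0165 with median-of-ratios scaling, and 48.6 and 47.0% of all calls were then higher, against 17.6% as deposited. The median over the Defa rows was 2.97 and 3.09 under these scalings.

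Defa24, the row with the highest mean over the 20 libraries, had 3472, 2711, 4888 and 4684 RPKM in DM-aKG replicates 1 to 4, against 222.6, 231.4, 178.3 and 221.8 RPKM in control replicates 1 to 4. In the later replicates it had 2561 and 1495 RPKM with DM-aKG, against 671, 2288 and 1349 RPKM in control libraries. In DM-aKG libraries alone Defa2 had the higher mean, at 3514 RPKM against 3302 RPKM of Defa24. The log2 change of Defa24 was 2.74 (SE 0.55, limma adjusted p = 0.000748). The rows next in mean over the 20 libraries, Defa2, Defa20, Defa21 and Defa22, had log2 changes of 3.41, 3.40, 3.51 and 3.53, with adjusted p-values of 0.00175, 0.00335, 0.00135 and 0.00159 from limma. The order of rows differed between groups, and Defa17 was second in control replicates 1 to 4. Within replicates 1 to 4 none of these 5 rows overlapped between DM-aKG and control libraries.

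The lysozyme Lyz1 moved with the defensins but over a smaller range. It had 2601, 1345, 3136 and 2480 RPKM in DM-aKG replicates 1 to 4, against 196.7, 226.3, 175.8 and 273.5 RPKM in control replicates 1 to 4. In the later replicates it had 1809 and 1126 RPKM with DM-aKG, against 560.1, 2070 and 1165 RPKM in control libraries. The groups were apart in the earlier replicates and overlapped in the later ones. Its log2 change was 2.17 (SE 0.57, limma adjusted p = 0.0061).

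Ang4 had 272.2, 95.3, 307.1 and 437.0 RPKM in DM-aKG replicates 1 to 4, against 2.29, 6.73, 6.15 and 8.44 RPKM in control replicates 1 to 4. In the later replicates the DM-aKG values of 153.6 and 57.8 RPKM stood inside the control range of 33.1 to 211.3 RPKM. Its log2 change was 3.13 (SE 0.95, limma adjusted p = 0.0158). Itln1 ranged from 154.5 to 542.8 RPKM with a median of 420.7 in DM-aKG libraries, against 33.4 to 463.7 RPKM with a median of 50.2 in control libraries (log2 change 2.04, SE 0.59, limma adjusted p = 0.0125). AY761184 ranged from 217.1 to 505.4 RPKM with a median of 342.5 in DM-aKG libraries, against 3.88 to 461.3 RPKM with a median of 6.48 in control libraries. At a log2 change of 3.83 (SE 0.92, limma adjusted p = 0.00366) it had the second-highest change of the 29 members, after Defa6.

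Defa6 was the most variable member. It had 1792, 910.7, 2421 and 1677 RPKM in DM-aKG replicates 1 to 4, against 0.281, 1.39, 0.274 and 13.8 RPKM in control replicates 1 to 4. In the later replicates it had 801.5 and 42.1 RPKM with DM-aKG, against 66.2, 898.2 and 408.3 RPKM in control libraries. Its log2 change of 5.27 carried an SE of 1.85 (limma adjusted p = 0.0341), and the call did not hold without any one of DM-aKG replicates 1, 3, 4 or 5 or control replicates 1 to 4, where the adjusted p from limma was 0.0515 to 0.0706. The symbol has no entry in GENCODE M21, so the gene model behind the row is not given in the sources used here.

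Members that did not rise were Defa28, Nupr1 and Habp2. Defa28 was near the detection limit, at 0.271 to 2.77 RPKM in DM-aKG and 0 to 1.06 RPKM in control libraries, where 1 read is worth about 0.0853 to 0.118 RPKM (log2 change 0.52, SE 0.27, limma adjusted p = 0.14). It passed with a pseudocount of 0.1 (adjusted p = 0.0389) and with quantile normalization (adjusted p = 0.048), both from limma. Nupr1 had 16.1 to 32.1 RPKM with a median of 26.8 in DM-aKG and 26.7 to 43.6 RPKM with a median of 31.8 in control libraries (log2 change -0.40, SE 0.18, limma adjusted p = 0.0953).

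Habp2 ran against the granule genes. It had 3.36, 10.6, 6.00, 4.73, 5.58 and 1.89 RPKM in DM-aKG replicates 1 to 6, against 15.9, 20.7, 33.5, 16.6, 29.3, 37.0 and 24.1 RPKM in control replicates 1 to 7. The groups did not overlap over all replicates, and it was the 1 member of 29 wholly lower with DM-aKG, where 8.19% of all genes were. The log2 change was -2.12 (SE 0.34, limma adjusted p = 7.52e-05), with -1.69 in replicates 1 to 4 and -2.81 in replicates 5 to 7, and it passed in both sets (limma adjusted p = 0.00217 and 0.00245). Habp2 amounted to 0.129 to 0.786% of Lyz1 by RPKM in DM-aKG, 1.79 to 19.1% in control and 0.104 to 0.188% in WT libraries. Over the 20 libraries the Pearson correlation of log2(RPKM + 1) with the other Defa rows was -0.403 for Habp2 and -0.0344 for Nupr1, against 0.96 for Itln1 and 0.978 for Lyz1. These coefficients are pooled over groups whose Habp2 levels differ. Between the replicate sets of each group, mean Habp2 and the mean defensin sum differed in the same direction. Habp2 averaged 3.73 RPKM in replicates 5 to 7 and 6.17 RPKM in replicates 1 to 4 of DM-aKG, 30.1 and 21.7 RPKM of control, and 4.44 and 1.06 RPKM of WT libraries. The sum averaged 16930 and 33130 RPKM in these sets of DM-aKG, 13620 and 990.6 RPKM of control, and 27490 and 10670 RPKM of WT libraries.

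**Figure D2:**
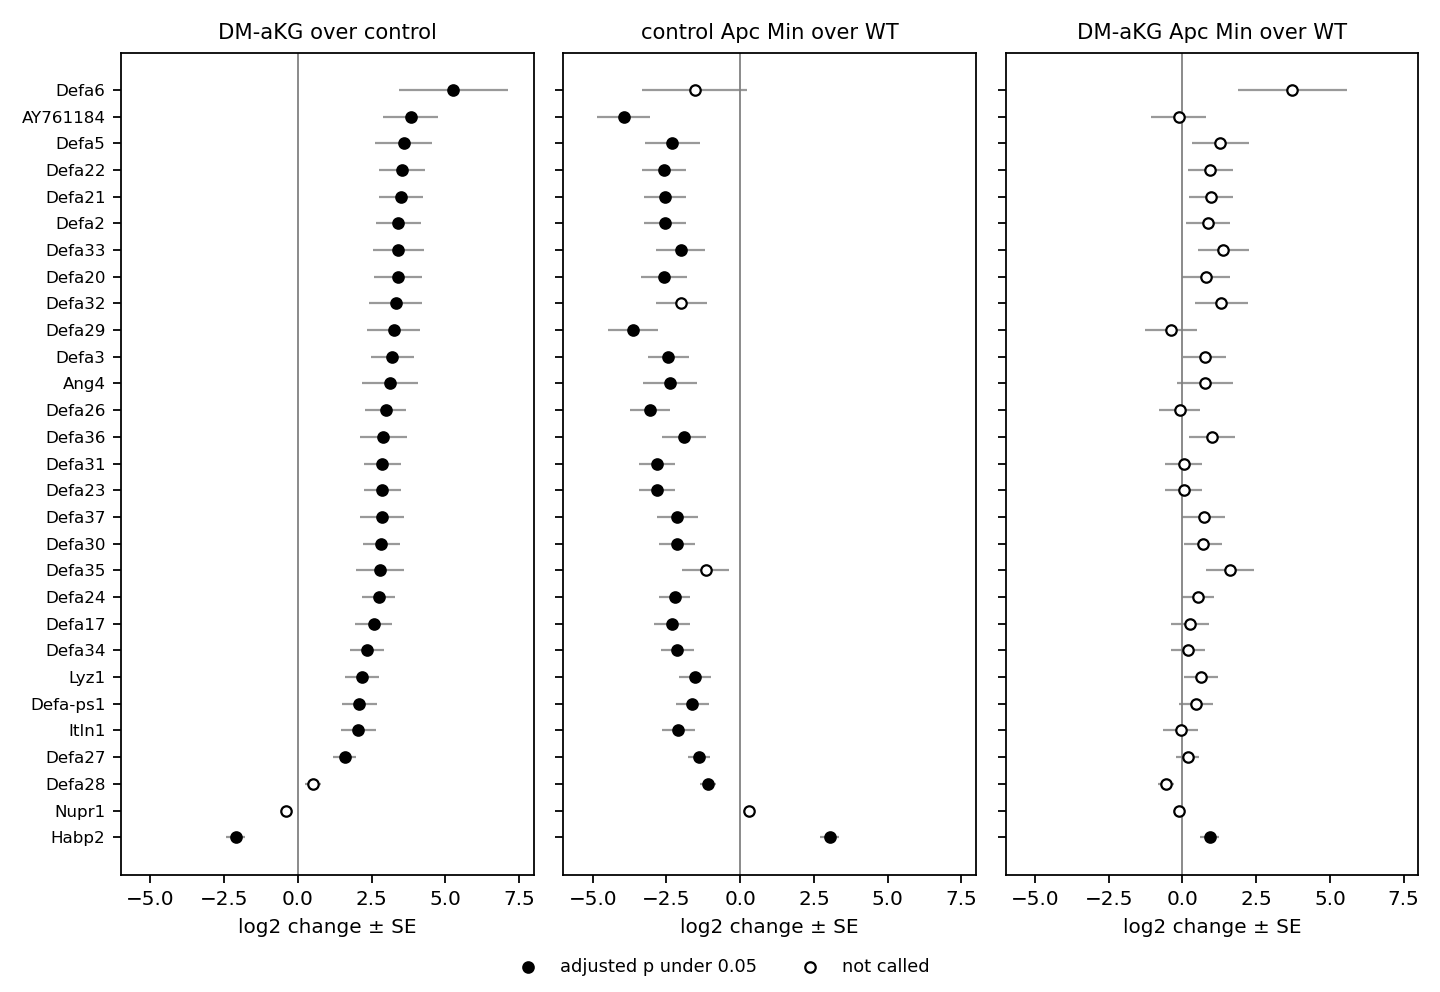
Log2 change ± SE of the 29 tested members in the 3 comparisons, in the order of the change with DM-aKG over control; filled points passed an adjusted p of 0.05 in limma. With DM-aKG over control 26 members are higher and 1 lower, with control Apc Min over WT 1 is higher and 24 lower, and with DM-aKG Apc Min over WT 1 is higher and 0 lower.

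The control Apc Min against the WT libraries address the effect of the Apc Min genotype. They share the control libraries with the treatment comparison, so the directions of the 2 comparisons are not independent. Of the 29 members, 24 were lower in control Apc Min libraries and 1, Habp2, was higher, while over all genes 15.7% were lower and 43.2% higher (limma). Lists of other cell types also held genes that were lower: 7 of 10 goblet cell, 6 of 10 enterocyte, 5 of 8 macrophage and neutrophil, 3 of 4 plasma cell and 7 of 7 smooth muscle genes, against 1, 0, 2, 1 and 0 that were higher. Crypt base stem cell and fibroblast genes were mostly higher, 5 of 7 and 5 of 6, against 1 and 0 that were lower. Among 18 other tested genes of Paneth cells, 7 were higher and 4 lower. Proximal small intestinal genes went both ways, with 4 of 8 higher and 2 lower. The lower ones were Lct, at -4.09 on the log2 scale (limma adjusted p = 0.00885), and Gata4, a proximal transcription factor, at -1.92 (limma adjusted p = 0.0163). Among the higher ones were Onecut2 and Onecut3, at 3.52 and 1.41 (limma adjusted p = 1.1e-09 and 2.42e-08). The part of cell mixture and intestinal region in the lower defensin values was not tested. The 23 tested Defa rows had log2 changes of -3.63 to -1.09 with a median of -2.21, beside 0.199 over all genes. That median was -0.0101 with quantile normalization, where the Defa rows had -2.06, and the share of all calls that were higher was then 49.2%, against 73.4% as deposited. The summed Defa rows averaged 6404 ± 8651 RPKM in control Apc Min and 17880 ± 12040 RPKM in WT libraries (SD, n = 7 each), which did not pass after adjustment (exact p = 0.049, adjusted over 3 comparisons 0.0735). Without a single library the exact p ran from 0.00758, without control replicate 6, to 0.112, without WT replicate 5. With labels permuted only within the replicate sets, the pooled difference had an exact p of 0.00857, not adjusted over the 3 comparisons. In replicates 1 to 4 the means were 990.6 and 10670 RPKM (n = 4 each, exact p = 0.0286, the smallest possible), and in replicates 5 to 7 they were 13620 and 27490 RPKM (n = 3 each, exact p = 0.2, where the smallest is 0.1).

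AY761184 fell most, to 94.8 ± 168.9 RPKM in control Apc Min against 502.7 ± 400.1 RPKM in WT libraries (SD, n = 7 each, log2 change -3.95, SE 0.89, limma adjusted p = 0.000861). Defa29 followed at -3.63 and Defa26 at -3.06 (limma adjusted p = 0.0013 and 0.000654). Lyz1 had 175.8 to 2070 RPKM with a median of 273.5 in control Apc Min libraries and 373.3 to 3454 RPKM with a median of 1215 in WT libraries (log2 change -1.54, SE 0.54, limma adjusted p = 0.0202). Itln1 fell by 2.09 on the log2 scale (limma adjusted p = 0.004). Over all replicates 0 of 29 members lay wholly lower in control Apc Min libraries, where 5.73% of all genes did. In replicates 1 to 4, 26 lay wholly lower and 2, Habp2 and Nupr1, wholly higher, where 10.4 and 32.4% of all genes did. In replicates 5 to 7, 7 lay wholly lower, where 15.5% of all genes did, among them Defa24, AY761184 and Itln1. By limma, 26 were called lower and 2 higher in replicates 1 to 4, where 11.7 and 35.0% of all genes were, and 7 lower and 1 higher in replicates 5 to 7, where 9.18 and 30.1% were.

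Habp2 had 15.9 to 37.0 RPKM with a median of 24.1 in control Apc Min libraries, against 0.701 to 5.60 RPKM with a median of 1.51 in WT libraries. No control library overlapped a WT library (log2 change 3.03, SE 0.32, limma adjusted p = 2.04e-07), as was true of 20.4% of all genes in that direction. Not called were Defa6, Defa32, Defa35 and Nupr1, with adjusted p-values of 0.473, 0.0541, 0.211 and 0.151 from limma. The calls for Defa5, Defa33, Defa36 and Ang4 were near the threshold, at limma adjusted p-values of 0.0387, 0.0425, 0.0358 and 0.0311. Each was lost without any one of control replicates 1 to 4 or of WT replicates 5 or 7. The adjusted p-values from limma then ran up to 0.0879, 0.0926, 0.0799 and 0.072. Defa5 was also lost without WT replicate 3 or 6, Defa33 without DM-aKG replicate 2 or WT replicate 2, 3 or 4, and Defa36 and Ang4 without WT replicate 6. Defa32 was gained without control replicate 6 or 7 or WT replicate 1, at adjusted p-values from limma of 0.00804, 0.0216 and 0.0204.

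The DM-aKG Apc Min against the WT libraries, which share libraries with both other comparisons, gave no call for any Defa row over all replicates. Of the 29 members 1, Habp2, was higher and 0 lower, where 21.9% of all genes were higher and 17.3% lower. None lay wholly higher or wholly lower, where 9.36 and 7.79% of all genes did. At an unadjusted p under 0.05, Defa28 was lower, at 0.944 ± 0.921 RPKM in DM-aKG and 1.86 ± 1.10 RPKM in WT libraries (SD, n = 6 and 7, limma adjusted p = 0.0985). The summed Defa rows averaged 27730 ± 12370 RPKM in DM-aKG (SD, n = 6) and 17880 ± 12040 RPKM in WT libraries (SD, n = 7, exact p = 0.174), and without WT replicate 5 the exact p was 0.0498. Habp2 averaged 5.36 ± 2.97 RPKM in DM-aKG and 2.51 ± 1.999 RPKM in WT libraries (SD, n = 6 and 7, log2 change 0.92, SE 0.34, limma adjusted p = 0.0362). Its call did not hold without any one of DM-aKG replicates 2 to 5 or WT replicates 1 to 4, where the adjusted p from limma was 0.0533 to 0.101.

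Within the replicate sets the same comparison pointed both ways. In replicates 1 to 4, 25 members were called higher in DM-aKG than in WT libraries (18.4% of all genes; limma), and the summed Defa rows averaged 33130 and 10670 RPKM (n = 4 each, exact p = 0.0286, the smallest possible). There 21 of 29 members lay wholly higher, where 22.1% of all genes did. In replicates 5 to 7, 0 members were called in either direction by limma, where 1.59% of all genes were higher and 2.82% lower, and 6 were lower at an unadjusted p under 0.05, as were 15.8% of all genes. There the sum averaged 16930 RPKM in DM-aKG (n = 2) and 27490 RPKM in WT libraries (n = 3, exact p = 0.4), and 11 of 29 members lay wholly lower, where 28.6% of all genes did. Lyz1 had a log2 change of 1.59 in replicates 1 to 4 (limma adjusted p = 0.00646) and -0.81 in replicates 5 to 7 (limma adjusted p = 0.366). The difference of this effect between the sets, a test added after the data were seen, was called for 0 of 29 members (limma, lowest adjusted p = 0.328), where 0.0% of all genes were called, while 27 had an unadjusted p under 0.05, as did 6.32% of all genes.

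The difference of the DM-aKG effect between the replicate sets was tested as an interaction. The effect on 18 of the 29 members was called smaller in replicates 5 to 7 than in replicates 1 to 4, and on 0 larger; over all genes 0.185% had a negative and 0.0241% a positive difference that was called (limma). Only 26 of 12431 genes were called in all. Of the 8 that are not members, 3 are further alpha-defensins by their RefSeq names: Gm14851, Gm7849 and Gm7861 had log2 changes of 5.58, 5.17 and 7.24 in replicates 1 to 4 and 0.60, 0.87 and -0.20 in replicates 5 to 7. Aqp4 and Magohb also had a negative difference, with log2 changes of 0.94 and 0.10 in replicates 1 to 4 and -0.99 and -0.64 in replicates 5 to 7. Gramd1b, Ces2c and Hsd17b11 had a positive one. The median of the difference over the 29 members was -4.47 on the log2 scale, and it was -5.83 for Defa5, -5.12 for AY761184 and -3.55 for Defa24 (limma adjusted p = 0.0187, 0.0171 and 0.0232). For Lyz1 it was -3.03 and missed the threshold (limma adjusted p = 0.105). These calls rested on few libraries. Only 2 DM-aKG libraries belong to replicates 5 to 7, so the calls could not be checked without either. Without DM-aKG replicate 6 the median difference was -3.83, and without DM-aKG replicate 5 it was -5.07. With all libraries, 27 members had a negative difference at an unadjusted p under 0.05, as did 8.99% of all genes. Without DM-aKG replicate 3, 4 members were called lower, among 6 genes called in all. Without control replicates 1, 4, 6 or 7, 10, 4, 3 or 5 members were called, among 12, 6, 4 or 11 genes. Without any one of the remaining libraries, between 13 and 25 members were called, among 15 to 36 genes. All 29 differences were below 0 in each of these fits. The genotype effect differed for 0 of 29 members between the sets, where 0.0% of all genes were called (limma, lowest adjusted p = 1.0), with 20 of 29 at an unadjusted p under 0.05, as were 3.53% of all genes.

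Inside replicates 1 to 4 the DM-aKG effect was called for 26 members higher and 1 lower, where 3.25% of all genes were higher and 14.6% lower (limma). The Defa rows had log2 changes of 0.84 to 9.19 with a median of 4.75. Inside replicates 5 to 7 it was called for 0 members higher and for Habp2 lower, where 3.06% were higher and 22.4% lower (limma). At an unadjusted p under 0.05, 0 were higher and 2 lower, where 6.53 and 32.9% of all genes were. The Defa rows there had log2 changes of -0.647 to 0.745 with a median of 0.362. Only 2 DM-aKG libraries belong to it.

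**Figure D3:**
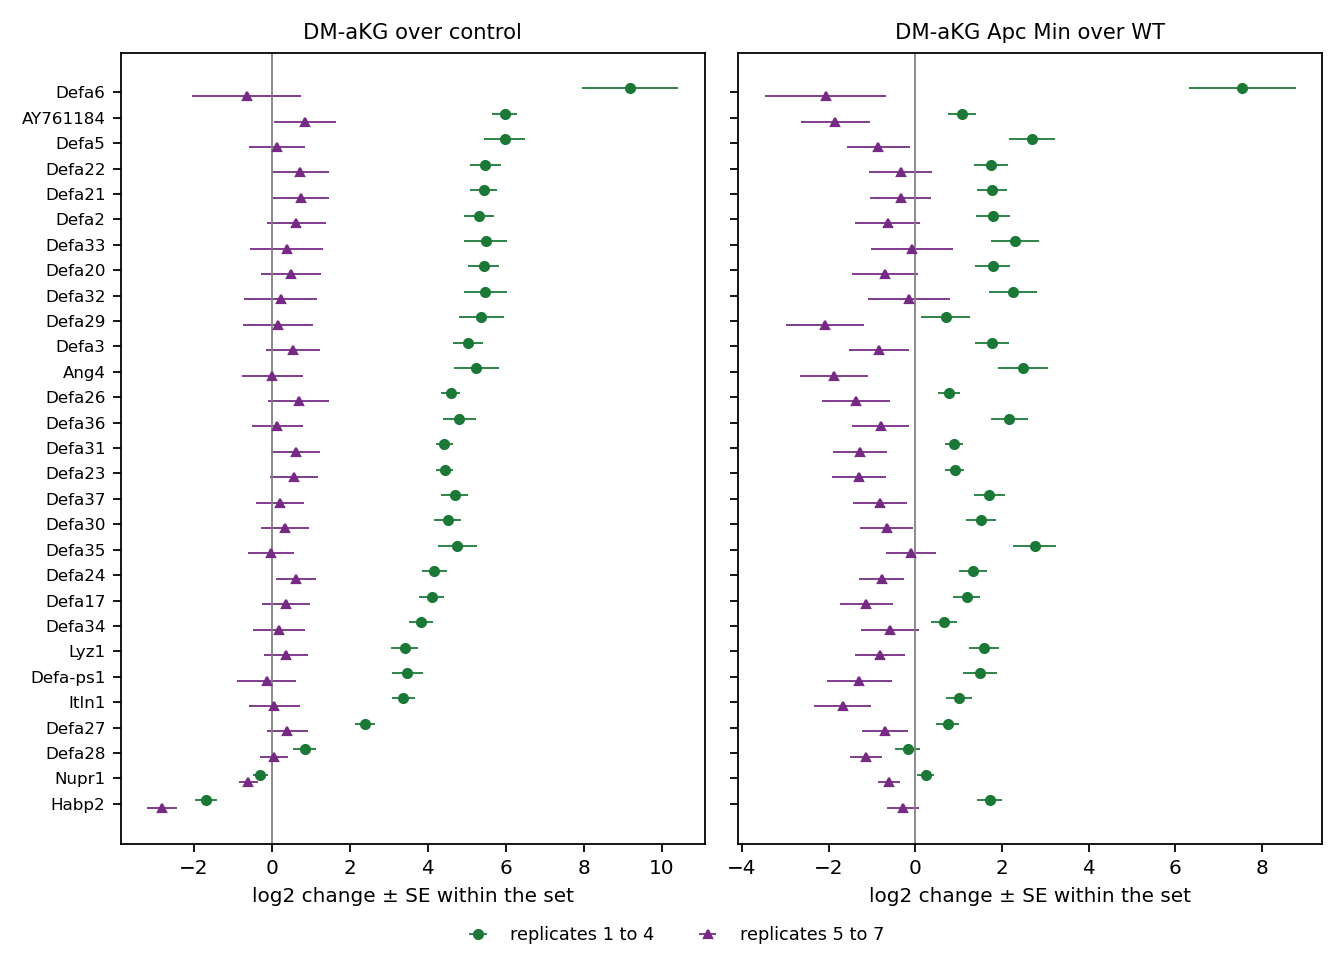
Log2 change ± SE of the 29 tested members within replicates 1 to 4 (green circles) and within replicates 5 to 7 (purple triangles), for DM-aKG over control and DM-aKG Apc Min over WT. The median over the Defa rows is 4.75 in replicates 1 to 4 and 0.362 in replicates 5 to 7 for DM-aKG over control, and 1.71 and -0.797 for DM-aKG Apc Min over WT.

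The leading row of the mixture was not the same in every library. Defa24 led in 5 of 7 control libraries and held 20.1 to 23.2% of the sum in control replicates 1 to 4. It also led in every WT library except replicate 5, at 12.3 to 16.9%, and in DM-aKG replicates 2, 4 and 6. No row held more than 14.3% in a DM-aKG library. The 5 most abundant rows together held 54.3 to 59.4% of the sum in DM-aKG, 51.2 to 63.9% in control and 54.2 to 60.9% in WT libraries. Lyz1 amounted to 6.37 to 10.4% of the defensin sum in DM-aKG libraries, against 19.6 to 28.6% in control replicates 1 to 4 and 8.81 to 11.5% in control replicates 5 to 7. In WT libraries it was 6.2 to 10.8%. Control replicates 1 to 4 were the 4 highest of the 20 libraries in this share.

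Ratios between copies differed in kind. Defa31 and Defa23, whose coding sequences are identical, kept a ratio of 0.886 to 0.921 in all 20 libraries. Defa32 and Defa20, also identical in coding sequence, had ratios of 0.497 to 0.71 in DM-aKG, 0.524 to 0.75 in control and 0.249 to 0.551 in WT libraries. Reads from identical stretches cannot be told apart, so the ratios of these identical pairs say little of the separate genes. Defa21 and Defa22, whose coding sequences differ at 2 bases and of whose 50-base stretches 27.1 and 25.1% are unique, had a ratio of 0.884 to 1.40. Defa6 over Defa5 was 1.89, 1.26, 1.43, 1.51, 1.06 and 0.159 in DM-aKG replicates 1 to 6. In control replicates 1 to 7 it was 0.017, 0.0689, 0.0191, 1.0, 0.373, 1.07 and 0.891. In WT replicates it was 2.04e-07 in replicate 1, 0.00478 in replicate 2, 0.145 and 0.208 in replicates 3 and 4, and 0.753 to 1.11 in replicates 5 to 7. Defa6 had 7.87e-06 RPKM in WT replicate 1, where 1 read is worth about 0.0853 to 0.118 RPKM at an assumed 400 bases. The ratio there says only that Defa6 was not detected. The 2 lowest values came from WT libraries with 38.7 and 228.7 RPKM of Defa5, and Defa6 was the only Defa row with a mean above 1 RPKM whose correlation with the other rows was below 0.9, at 0.85, apart from Defa28 at 0.725. Lct, which marks proximal tissue, was at 194.6 RPKM in DM-aKG replicate 6 and at 229.2 RPKM in WT replicate 1, where the ratio was low, but at 0.149 RPKM in WT replicate 2, where it was low too. WT replicates 6 and 7 had 150.0 and 57.3 RPKM of Lct with ratios of 0.753 and 1.06. The part of intestinal region in the Defa6 ratio was not tested.

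**Figure D4:**
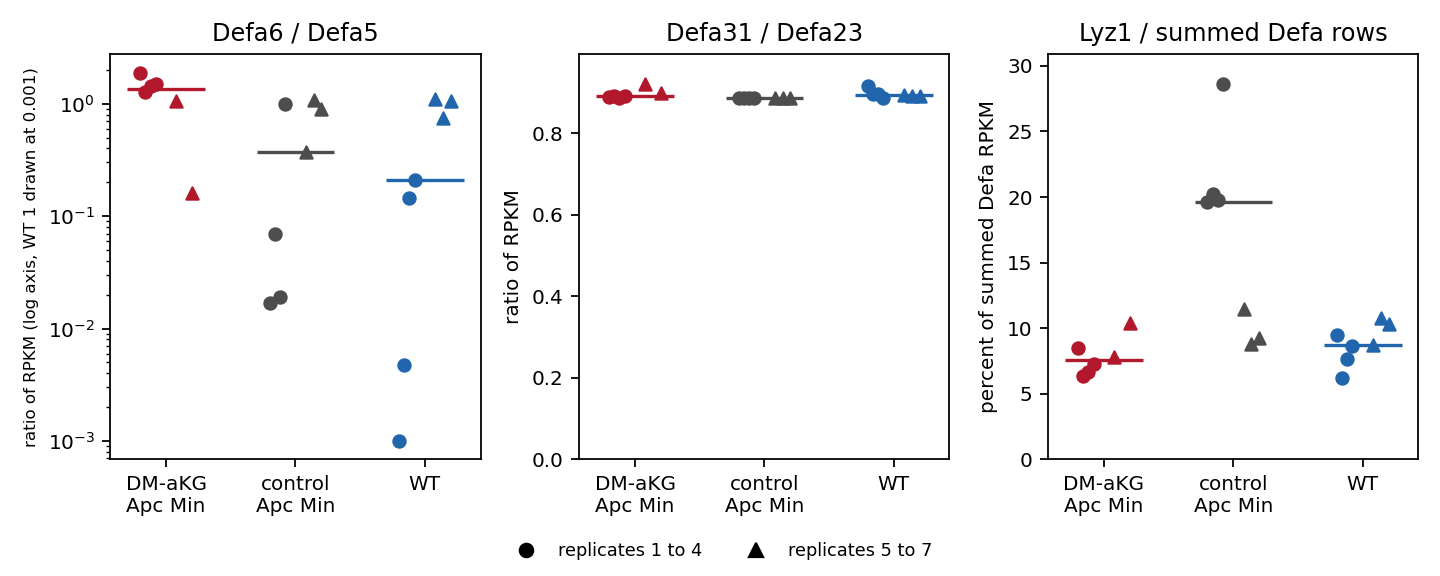
Ratio of RPKM of Defa6 to Defa5 (log axis, with WT replicate 1 drawn at the floor of the axis) and of Defa31 to Defa23, and Lyz1 as a percent of the summed Defa rows, in every library; circles are replicates 1 to 4, triangles replicates 5 to 7 and lines the medians. Defa31 stays at 0.886 to 0.921 of Defa23 in every library, while Defa6 over Defa5 reaches 1.89 and Lyz1 reaches 28.6% of the sum in a control library. The lowest Defa6 ratio, 2.04e-07, comes from WT replicate 1, where Defa6 lay below the worth of 1 read.

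The members left untested were 4 Defa rows. Defa-ps12 and Defa-ps13 were at 0 in all 20 libraries, and RefSeq lists names of beta-defensin pseudogenes among their synonyms. Defa25 reached 0.137 RPKM at most, was at 0 in 16 libraries and held 1 read or more in 2. Defa4 had values above 0 in all 20 libraries but never above 2.03e-12 RPKM, far below the worth of 1 read. Of the low rows that passed, Defa27 averaged 5.43 ± 1.59 RPKM in DM-aKG and 1.66 ± 2.43 RPKM in control libraries, and the pseudogene Defa-ps1 11.2 ± 6.36 and 3.01 ± 4.84 RPKM (SD, n = 6 and 7).

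Genes outside the set whose pattern was most like the summed Defa rows were ranked by Pearson correlation of log2 values over the 20 libraries, as a description. Among 8895 genes those with high coefficients included Gm14851 (r = 0.989), Gm15292 (0.949), Gm7849 (0.947), Clps (0.945), Hpd (0.881), Gm7861 (0.87) and Fam174b (0.84). RefSeq names the 4 predicted genes Defa38, Defa40, Defa42 and Defa43, in that order. Within the 12 libraries of replicates 1 to 4 the list held Gm14851 (0.991), Gm15292 (0.982), Clps (0.965), Inpp4a (0.954), Gm7849 (0.953), Mapkbp1 (0.919), Gm7861 (0.901) and Slc2a4 (0.9). The libraries fall into shared groups and replicate sets, so the coefficients only describe likeness. Clps, the colipase that Paneth cells also express, had 21.8 to 60.9 RPKM with a median of 40.4 in DM-aKG and 3.29 to 36.8 RPKM with a median of 6.04 in control libraries (log2 change 1.97, SE 0.51, limma adjusted p = 0.00618).

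Other genes of Paneth cells, as a list, went both ways, with a median near that of all genes. Of 18 tested genes of a list of 22, 3 rose and 6 fell with DM-aKG, with a median log2 change of -0.156, beside 5.91% of all genes rising, 27.6% falling and a median of -0.142. Clps was among the 3 that rose. With median-of-ratios scaling 3 rose and 4 fell. Mmp7, which cleaves the defensin precursors, fell: it had 62.0, 144.2, 87.6, 67.5, 95.6 and 19.95 RPKM in DM-aKG replicates 1 to 6, against 111.9 to 330.0 RPKM with a median of 149.5 in control libraries (log2 change -1.36, SE 0.46, limma adjusted p = 0.0277). The groups overlapped at DM-aKG replicate 2. The call was kept with quantile normalization but not with median-of-ratios scaling (limma adjusted p = 0.0391 and 0.057). Pla2g2a, a secreted phospholipase of the granules, fell by 2.65 (limma adjusted p = 0.000135) and had 17.6 to 216.9 RPKM in DM-aKG, 163.6 to 572.8 RPKM in control and 11.6 to 40.5 RPKM in WT libraries. Sox9, the transcription factor that Paneth cells require, fell by 1.71 and Cd24a, a surface protein of Paneth cells, by 1.79 on the log2 scale (limma adjusted p = 1.26e-05 and 6.57e-06). Ephb3, a receptor that positions Paneth cells at the crypt base, fell by 1.31 (limma adjusted p = 0.000135). Sox9 and Cd24a are also expressed by crypt progenitors and both were higher in control Apc Min than in WT libraries, by 2.05 and 2.08 (limma adjusted p = 2.43e-07 and 1.9e-07). Mmp7 and Ephb3 were higher there too, by 2.16 and 1.61 (limma adjusted p = 0.000361 and 2.9e-06). Over the 18 tested genes of this list, 7 were higher and 4 lower in that comparison. Mptx2, a mucosal pentraxin of Paneth cells, did not pass with DM-aKG (log2 change 1.25, SE 0.84, limma adjusted p = 0.264) and was lower in control Apc Min than in WT libraries (log2 change -2.42, limma adjusted p = 0.0149).

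Among 14 tested genes for processing, folding and trafficking of secreted proteins, 0 rose and 8 fell with DM-aKG, with a median log2 change of -0.339, to be read against the same background. Pdia6 and Pdia4, which form disulfide bonds in the endoplasmic reticulum, fell by 0.76 and 0.82 (limma adjusted p = 0.00113 and 0.00241), and both kept their call under quantile and median-of-ratios scaling. Rab32, a small GTPase, and Creld2, an endoplasmic reticulum stress protein, had log2 changes of -0.54 and -0.52 that did not pass under either (limma adjusted p = 0.0663 and 0.108 with quantile normalization). In this list 5 genes fell with quantile normalization and 2 with median-of-ratios scaling. Of 9 tested secretory lineage factors 0 rose and 4 fell, among them Spdef, a factor of goblet and Paneth cell maturation (log2 change -0.49, limma adjusted p = 0.00777). For Spdef the adjusted p from limma was 0.0536 with quantile normalization and 0.0449 with median-of-ratios scaling. Of 7 crypt base stem cell genes 0 rose and 5 fell, of 7 pan-epithelial genes 0 rose and 6 fell, where 2 of the 7 fell with median-of-ratios scaling, and of 10 goblet cell genes 2 rose and 2 fell. Of 10 enterocyte genes 5 rose and 0 fell, and of 8 enteroendocrine genes 4 rose and 0 fell. Of 7 smooth muscle genes 7 rose and 0 fell, and of 6 fibroblast genes 0 rose and 4 fell. Lyz2, the lysozyme of macrophages and a near relative of Lyz1, did not pass with DM-aKG (log2 change -0.27, SE 0.28, limma adjusted p = 0.485). Of 8 tested macrophage and neutrophil genes 0 rose and 1 fell. Of 8 proximal small intestinal genes 0 rose and 4 fell, of 5 ileal genes 1 rose and 0 fell, and of 4 plasma cell and 3 tuft cell genes 0 rose and 1 fell in each list. The share of these other cell types in the member values was not tested.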

How the data were processed

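RNA-seq values of 20 mouse libraries in 3 groups (6 DM-aKG, 7 control, 7 WT) came from 1 table, which the authors deposited as values read here as RPKM, reads counted per gene and divided by gene length and mapped reads. The unit was inferred: values are fractional, steps between low values differ from gene to gene, and library sums are 277634 to 369409. The submitters' processing notes list CASAVA 1.8, HISAT2 2.0.4, Partek and mm10. How these were used, the annotation, the strand setting and the handling of reads that match several genes are not stated there, which bears on the near-identical defensins. Of low values, 65.4 to 71.1% lay within 0.1 read of a whole number, where evenly spread values would give 20%, so counts were not recovered. Depth estimates cover counting error only.

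After a filter of 1 RPKM in 6 or more libraries, 12431 genes were fitted as log2(RPKM + 1) over 3 groups with limma 3.58.1 (trend, robust; statmod 1.5.0; R 4.3.3), leaving out 4 rows with repeated names. Fold changes on this scale understate low genes. Calls are at a 2-sided Benjamini-Hochberg adjusted p under 0.05. Summed rows were tested by exact permutation of libraries, 2-sided. Python 3.11.15, numpy 2.4.6, pandas 2.3.3, Biopython 1.88 and matplotlib 3.10.9 were used, and the fit was tested on simulated data. The members, the gene lists, the replicate sets and the tests were chosen with earlier results of these data known. All members are named, and from each other list up to 4 genes with the smallest p. Mmp7, Clps, Mptx2, Lyz2, Lct, Gata4 and Slc10a2 were added for their roles after their values were seen. One gene that the likeness rule names is not reported here. Alternatives varied pseudocount, filter, scaling, libraries, replicate block and replicate set. Counts of other lists under each scaling were added after the data were seen. Coding sequences are shown because proteins were not used here.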

Additional observations from a re-analysis of the deposited data

Results flagged for a closer look

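A single library stood far from the rest of its group for 7 of 90 groups of values, where chance gives about 1 in 20. In control replicate 6 this held for Defa26 at 73.46 RPKM, Defa27 at 6.97 RPKM, Defa29 at 356.0 RPKM, Defa-ps1 at 13.17 RPKM and AY761184 at 461.3 RPKM. In DM-aKG replicate 3 it held for Defa28 at 2.768 RPKM and Defa34 at 784.7 RPKM. Several of these rows share reads and are not independent. In control libraries the summed Defa rows differed between the replicate sets, which this rule does not allow for.

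The effect of DM-aKG over control differed between replicates 5 to 7 and replicates 1 to 4 for 18 members by the limma interaction term. The differences of log2 change, later minus earlier replicates, were -5.124 for AY761184, -5.237 for Ang4, -3.734 for Defa17, -4.688 for Defa2, -4.939 for Defa20, -4.684 for Defa21, -4.740 for Defa22, -3.861 for Defa23, -3.549 for Defa24, -3.892 for Defa26, -4.498 for Defa3, -4.170 for Defa30, -3.819 for Defa31, -3.634 for Defa34, -4.779 for Defa35, -4.666 for Defa36, -4.475 for Defa37 and -5.835 for Defa5. Replicates 5 to 7 hold only 2 DM-aKG libraries, so the calls could not be checked without either of them. The cause was not tested.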

How the results depend on the processing

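With DM-aKG over control, every alternative that kept all replicates or left out 1 library gave 25 to 27 members higher and 1 lower. Quantile normalization and median-of-ratios scaling changed no direction. In replicates 5 to 7 the count higher was 0, the log2 changes of Defa6, Defa35 and Defa-ps1 turned to -0.65, -0.0248 and -0.129, and the difference of the sum was 3310 RPKM (exact p = 0.8). For control over WT, 2 members were higher in replicates 1 to 4, 7 were lower in replicates 5 to 7, where Nupr1 turned to -0.012, and 20 to 25 were lower without 1 library. The difference of the sum, -11470 RPKM, had an exact p of 0.0839 after scaling to the genes outside the members. It was -9781 RPKM (exact p = 0.0787) without Defa24 and -13860 RPKM (exact p = 0.2) in replicates 5 to 7. Without 1 library it lay between -14320 and -7866 RPKM. The exact p was 0.0297 with median-of-ratios scaling, 0.0216 for log2(sum + 1) and 0.00857 with labels permuted within replicate sets. With the replicate block the exact sign-flip p was 0.0469, where the smallest is 0.0156. None of these p-values was adjusted over the 3 comparisons. For DM-aKG over WT, the count higher was 25 in replicates 1 to 4, 0 in replicates 5 to 7, 0 with no filter, 3 with the replicate set as a factor and 0 to 1 without 1 library, and the count lower was 1 with quantile normalization and 0 to 1 without 1 library. There the sum differed by 22460 RPKM (exact p = 0.0286) in replicates 1 to 4, by -10550 RPKM (exact p = 0.4) in replicates 5 to 7 and by 6034 to 13460 RPKM without 1 library, and in replicates 5 to 7 Lyz1, Defa24, Defa6 and Habp2 turned to -0.81, -0.77, -2.07 and -0.28. The interaction of treatment and set was called for 3 to 25 members without 1 library, an alternative added after the data were seen. This range leaves out the fits without DM-aKG replicate 5 or 6, the only DM-aKG libraries of replicates 5 to 7. The cause of these changes was not tested.

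Deviations from the group means had correlations of -0.457 to 0.604 between same-numbered libraries. Differently numbered libraries were not compared, and the group means mix the replicate sets. Whether the numbers pair the libraries was therefore not decided. With the replicate block, 3 members were higher in DM-aKG than in WT libraries, where 21.9% of all genes were without the block. Shares of all genes under the block, or with the replicate set as a factor, are not given here. The sum differed with the block by 22350 RPKM between DM-aKG and control libraries (exact sign-flip p = 0.0625, where the smallest is 0.0312). Defa32 was then called lower in control than in WT libraries (limma adjusted p = 0.0476).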
